A study of Mus musculus with 12 samples.

Results

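The 29 genes described here cover cholesterol synthesis, its sterol-sensing control, and cholesterol carriage and efflux. They were the 29 rows, of 54532 genes in the raw count table, whose gene name matched a fixed list: 18 enzymes that build cholesterol (Acat2, Hmgcs1, Mvk, Pmvk, Mvd, Idi1 and Fdps of the mevalonate steps, Fdft1, Sqle and Lss of squalene and lanosterol formation, and Cyp51, Tm7sf2, Msmo1, Nsdhl, Hsd17b7, Ebp, Sc5d and Dhcr7 of the last steps), 5 genes of SREBP control (Srebf1, Srebf2, Scap, Insig1, Insig2), the sterol carrier gene Stard4, the efflux transporter genes Abca1 and Abcg1, and the liver X receptor genes Nr1h2 and Nr1h3 with the target Mylip. All 29 had enough counts to be tested.

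Cells make cholesterol from acetyl-CoA through mevalonate, squalene and lanosterol. When membrane cholesterol is low, SCAP escorts the SREBP transcription factors from the endoplasmic reticulum to the Golgi, where they are cut and released to switch on the enzyme genes; INSIG proteins hold SCAP back when sterols are plentiful, and Insig1 is itself an SREBP target. When sterols are in excess, oxysterols activate the liver X receptors, which raise the efflux pumps ABCA1 and ABCG1 and the ubiquitin ligase MYLIP. Eosinophils are granulocytes of type 2 immunity; IL-33, an alarmin released by damaged epithelium, activates them, and Siglec-F is their inhibitory sialic acid-binding receptor in mice.

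The cells were GFP-positive, high side-scatter eosinophils sorted from spleens of IL-5tg_4get/C57BL/6 mice. All groups therefore carried the IL-5 transgene, which gives these mice an abnormally large eosinophil pool, and the 4get allele, whose GFP reports Il4 transcription. Cells were cultured for 4 h with anti-Siglec-F antibody (5 µg/mL) plus IL-33 (10 ng/mL), with IL-33 alone (10 ng/mL), with anti-Siglec-F alone (5 µg/mL), or with a rat IgG2a isotype antibody (5 µg/mL). The labels do not say whether the IL-33 group also received an isotype antibody. The isotype group is thus the common control, and each of the 4 groups had 3 RNA-seq libraries. Nothing in the labels tells whether the 3 libraries were separate mice or wells, so p-values reflect library-to-library spread that may be technical. The libraries came from bulk cells, in which fewer cells of a type and less RNA per cell cannot be told apart.

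Total counts were 11686603 to 17137988 per library. Siglecf, the gene of the targeted receptor, was read at 572 to 673 CPM (counts scaled for library depth) with both stimuli, 535 to 858 with IL-33, 828 to 1068 with anti-Siglec-F and 789 to 932 with isotype, and all 9 listed eosinophil markers, Epx, Prg2, Ccr3 and Il5ra among them, were present in every group. The summed level of these 9 markers was uneven, at 5504 to 12777 CPM with both stimuli, 4438 to 7363 with IL-33, 5951 to 10084 with anti-Siglec-F and 5762 to 10144 with isotype. The sum of 8 neutrophil markers varied too, at 303 to 1197, 177 to 922, 387 to 1310 and 448 to 1205 CPM in the same order. Libraries 2 and 3 of the group given both stimuli stood apart. They had counts in 15555 and 29990 genes. Of the other 10 libraries, library 2 of the IL-33 group had counts in 24485 genes and the rest in 19138 to 20916. Ribosomal protein genes took 3.45% and 3.99% of counts in the 2 libraries that stood apart, against 1.69% to 2.71% in the other 10. Library 2 of the IL-33 group also had the lowest summed level of eosinophil markers, 4438 CPM. A list of 14 monocyte and macrophage markers also moved with treatment: its summed level was 3397 to 4442 CPM with both stimuli, 2734 to 3680 with IL-33, 2198 to 2558 with anti-Siglec-F and 1698 to 1982 with isotype, and 4 of the 13 tested markers (Csf1r, Adgre1, Spic and Slc40a1) were higher with both stimuli than with isotype and the first 3 of them with IL-33. Adgre1 and Csf1r made up most of that sum and mature eosinophils transcribe Adgre1 too. Spic, a factor of red pulp macrophages, was at 5.30 to 26.2 CPM with both stimuli, 4.12 to 21.7 with IL-33, 0.642 to 1.29 with anti-Siglec-F and 0.549 to 1.33 with isotype (log2 3.92 ± 0.67 with both stimuli and 3.65 ± 0.66 with IL-33 against isotype, adjusted p = 0.00292 and 0.0101). The iron exporter gene Slc40a1 was at 108 to 341, 43.0 to 166, 94.1 to 140 and 54.2 to 87.1 CPM in the same order of groups, and Vcam1, which did not pass, at 42.1 to 132, 35.9 to 122, 9.14 to 40.8 and 10.8 to 39.0. C1qa, C1qb, C1qc and Cd163 each stayed between 0 and 3.34 CPM in every library. The part of these differences in the results was not tested.

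In isotype-treated eosinophils Srebf2 and Nr1h2 were read above all of the enzymes. Per kilobase of gene length, the level was 49.0 ± 1.80 CPM for Srebf2 (SD, n = 3, as for all levels), the SREBP that mainly drives sterol synthesis, and 15.98 ± 0.711 for Srebf1, whose products favour fatty acid synthesis. Nr1h2, encoding the liver X receptor found in nearly all tissues, stood at 39.6 ± 3.86 CPM per kilobase, and Nr1h3, the receptor of liver and macrophages, at 0.453 ± 0.123. The 2 efflux pumps also differed, with Abcg1 at 36.6 ± 0.871 and Abca1 at 1.39 ± 0.278 CPM per kilobase. The count table gives Abcg1 4066 bases and GENCODE M21 7298 exonic bases, and over the longer length its level was 20.4 ± 0.485, below Mvd, Mylip and Scap instead of above them. The highest enzyme was Mvd, mevalonate diphosphate decarboxylase, at 28.9 ± 4.22 CPM per kilobase, followed by Ebp, the sterol isomerase, at 17.0 ± 1.64.

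By the table's lengths, the order of isotype levels per kilobase ran Srebf2, Nr1h2, Abcg1, Mvd, Mylip, Scap, Ebp, Srebf1, Hmgcs1, Stard4, Insig1, Cyp51, Sc5d, Insig2, Msmo1, Fdft1, Pmvk, Sqle, Acat2, Nsdhl, Idi1, Lss, Abca1, Dhcr7, Mvk, Hsd17b7, Tm7sf2, Fdps and Nr1h3. The ranges of the 3 libraries overlapped in 20 of the 28 neighbouring pairs, so the order is clear only over longer steps. The median of all 14547 tested genes was 3.78 CPM per kilobase, and the first 18 genes of this order were above it, Sqle as the last of them at 4.67 ± 1.09. Fdps, farnesyl diphosphate synthase, was the lowest enzyme at 0.479 ± 0.190; 26.7% of its exonic bases overlap Gm43738 on the same strand, and how the counting treated such reads is not stated.

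**Figure D1:**
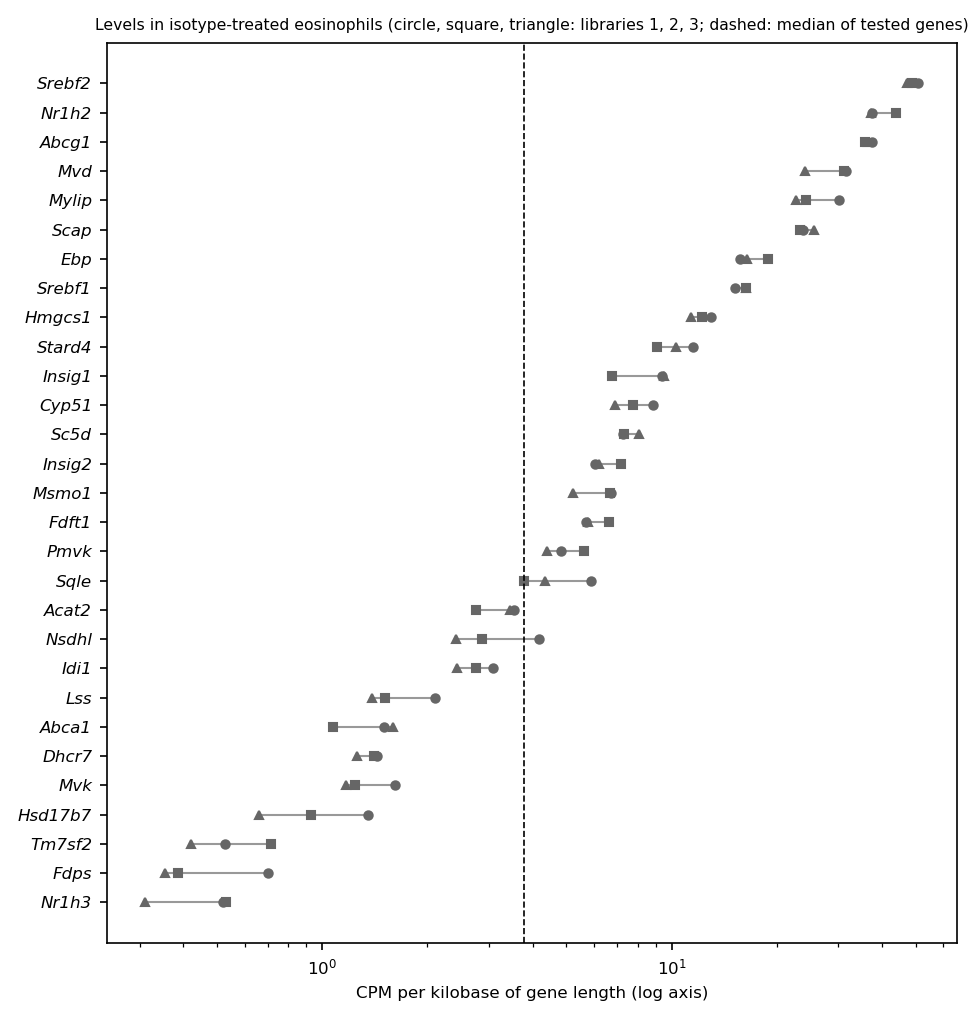
Level of each of the 29 genes in the 3 isotype libraries, in CPM per kilobase of gene length on a log axis, with a line over each gene's range and a dashed line at the median of all tested genes, 3.78. Srebf2 and Nr1h2 lead at 49.0 and 39.6, Nr1h3 is lowest at 0.453, and Abcg1, drawn at 36.6, would stand at 20.4 over its GENCODE length.

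The promoters of 5 members that the results turn on are shown to place the sterol-control motifs: the 4 that rose with both stimuli against isotype, and Hmgcs1, HMG-CoA synthase, a classic SREBP target. Each is 250 bases before to 50 after a RefSeq transcript start (GRCm38.p6), with capitals for matches on either strand to the sterol regulatory element TCACCCCAC, the E-box CACGTG, the inverted CCAAT box ATTGG (the site of NF-Y, a partner of SREBPs) and the GC box GGGCGG (the site of SP1). The windows are chr3:89454291-89454590, plus strand; chr13:119690101-119690400, plus strand; chr5:4104648-4104947, minus strand; chr1:169969156-169969455, minus strand; and chr5:28071162-28071461, plus strand.
Pmvk: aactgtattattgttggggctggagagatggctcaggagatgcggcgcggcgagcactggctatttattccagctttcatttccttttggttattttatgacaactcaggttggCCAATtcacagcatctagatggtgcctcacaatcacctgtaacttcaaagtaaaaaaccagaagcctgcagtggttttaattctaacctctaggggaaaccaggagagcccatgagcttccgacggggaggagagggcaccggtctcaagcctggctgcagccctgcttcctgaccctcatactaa
Hmgcs1: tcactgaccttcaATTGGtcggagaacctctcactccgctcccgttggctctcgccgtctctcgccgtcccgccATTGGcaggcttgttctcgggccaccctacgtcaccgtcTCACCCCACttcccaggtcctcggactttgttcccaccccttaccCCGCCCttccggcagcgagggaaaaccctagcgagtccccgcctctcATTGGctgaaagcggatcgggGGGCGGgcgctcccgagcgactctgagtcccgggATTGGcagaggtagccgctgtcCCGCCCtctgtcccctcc
Cyp51: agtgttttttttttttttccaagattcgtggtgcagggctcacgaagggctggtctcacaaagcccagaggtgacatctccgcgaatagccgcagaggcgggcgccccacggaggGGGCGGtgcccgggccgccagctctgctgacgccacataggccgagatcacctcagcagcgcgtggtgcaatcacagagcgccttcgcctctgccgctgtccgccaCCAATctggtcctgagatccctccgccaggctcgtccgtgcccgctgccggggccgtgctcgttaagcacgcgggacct
Hsd17b7: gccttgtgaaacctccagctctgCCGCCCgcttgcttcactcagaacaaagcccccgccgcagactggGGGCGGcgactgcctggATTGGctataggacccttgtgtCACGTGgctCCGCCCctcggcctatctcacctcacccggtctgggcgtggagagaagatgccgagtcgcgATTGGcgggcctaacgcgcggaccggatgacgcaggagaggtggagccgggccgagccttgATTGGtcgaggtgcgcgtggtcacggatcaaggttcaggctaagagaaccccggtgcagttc
Insig1: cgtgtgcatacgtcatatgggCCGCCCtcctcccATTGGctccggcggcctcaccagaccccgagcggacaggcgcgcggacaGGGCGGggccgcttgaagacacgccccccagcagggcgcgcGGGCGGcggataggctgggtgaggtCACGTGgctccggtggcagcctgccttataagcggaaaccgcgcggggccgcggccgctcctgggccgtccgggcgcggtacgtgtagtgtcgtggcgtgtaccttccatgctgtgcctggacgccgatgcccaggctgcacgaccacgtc

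RefSeq windows were matched for 24 of the 29 members, and Fdps, Fdft1, Sqle, Stard4 and Abcg1 had none. Of those 24, Hmgcs1 was the sole member with the sterol element, 137 bases before its start; 0.551% of all 32851 windows hold it. The E-box stood in 6 members, Insig1, Hsd17b7, Sc5d, Dhcr7, Scap and Abca1, and in 7 of the 33 windows that the 24 members have together, against 7.15% of all windows. Inverted CCAAT boxes were found in 20 of the 33 windows (19 members), against 37.4% of all windows, and GC boxes in 25 (21 members), against 35.7%. Among the printed promoters, that of Hsd17b7 held 3 inverted CCAAT boxes, 3 GC boxes and an E-box, and that of Insig1 1 inverted CCAAT box, 3 GC boxes and an E-box. The printed Pmvk window, 1 of 2 for that gene, held a single CCAAT box and none of the other motifs. These are letter matches, and no match says only that the letters are not in that window.

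Anti-Siglec-F plus IL-33 against isotype asks what the combined stimulus did to the pathway. Pmvk, Cyp51, Hsd17b7 and Insig1 rose, by 2.88-, 2.46-, 3.72- and 2.53-fold, and no member was called lower. Of the 18 synthesis enzymes, 16 had a fold change above 1, 3 passed the test (16.7%), and the median log2 fold change was 0.57, against -0.05 over all tested genes. The pattern ran through the mevalonate steps (median 0.72), squalene and lanosterol formation (0.65) and the last steps (0.32). Calls (adjusted p under 0.05, edgeR quasi-likelihood test) made up 9.88% of all genes, with 5.47% higher and 4.41% lower; among the 29 members 4 were called higher, or 13.8%, and 24 had a fold change above 1 (82.8%), as did 46.6% of all genes.

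Pmvk, phosphomevalonate kinase (chr3:89454541-89469013), had 22.0, 19.9 and 31.5 CPM with both stimuli, 21.3, 8.34 and 9.29 with IL-33, 10.3, 8.43 and 8.34 with anti-Siglec-F, and 8.29, 9.60 and 7.52 with isotype. All 3 libraries given both stimuli were above all antibody-only and isotype libraries, and of the IL-33 libraries only the first was near them. The log2 fold change against isotype was 1.53 ± 0.32 (SE, adjusted p = 0.0100). Means were 24.4 ± 6.18 CPM with both stimuli and 8.47 ± 1.05 with isotype.

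Cyp51, lanosterol 14-alpha-demethylase (chr5:4081145-4104746), had 99.5, 57.3 and 98.8 CPM with both stimuli, 84.4, 33.4 and 68.4 with IL-33, 42.4, 34.7 and 27.8 with anti-Siglec-F, and 39.2, 34.2 and 30.4 with isotype. Library 2 of each IL-33-treated group was the lowest of its group, and that of IL-33 alone lay within the isotype range. With both stimuli the mean was 85.2 ± 24.2 CPM against 34.6 ± 4.39 with isotype, a log2 fold change of 1.30 ± 0.30 (adjusted p = 0.0164), with no overlap between the groups. About 3.76% of its exonic bases overlap Akap9 on the other strand.

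Hsd17b7, the sterol 3-ketoreductase (chr1:169949535-169969241), had 29, 6.65 and 20.4 CPM with both stimuli, 25.1, 5.82 and 15.4 with IL-33, 6.58, 4.58 and 4.40 with anti-Siglec-F, and 6.92, 4.73 and 3.37 with isotype. Library 2 of both IL-33-treated groups lay inside the isotype range, so the groups overlapped. The fold change was the largest of any member (log2 1.90 ± 0.53, adjusted p = 0.0397), on means of 18.7 ± 11.3 CPM with both stimuli and 5.01 ± 1.79 with isotype.

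Insig1, the sterol-responsive brake on SCAP (chr5:28071363-28078662), had 69.3, 41.1 and 90.3 CPM with both stimuli, 77.9, 28.4 and 64.6 with IL-33, 33.0, 24.6 and 23.1 with anti-Siglec-F, and 28.98, 20.9 and 29.5 with isotype. All libraries given both stimuli were above all isotype libraries. The log2 fold change was 1.34 ± 0.34 (adjusted p = 0.0252), on means of 66.9 ± 24.6 and 26.5 ± 4.82 CPM.

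Several enzymes lay just past the threshold. Sqle, squalene epoxidase, a rate-limiting step, had 55.7, 39.5 and 67.2 CPM with both stimuli against 32.6, 21.0 and 24.1 with isotype, without overlap (log2 1.06 ± 0.32, adjusted p = 0.0510). The adjusted p was 0.0625 for Idi1, isopentenyl diphosphate isomerase, 0.0642 for Fdft1, squalene synthase, and 0.0757 for Msmo1, the methylsterol oxidase, at log2 fold changes of 1.20, 0.65 and 0.78. Hmgcs1 had 113, 65.5 and 109 CPM with both stimuli against 59.5, 56.2 and 52.4 with isotype (log2 0.78 ± 0.30, adjusted p = 0.118). About 12.1% of its exonic bases overlap Gm48342 on the other strand. In all, 8 members (27.6%) had every library given both stimuli above every isotype library, against 12% of all tested genes: Hmgcs1, Pmvk, Fdft1, Sqle, Cyp51, Msmo1, Insig1 and Srebf2. The remaining enzymes had log2 fold changes of -0.58 (Dhcr7, the last reductase) to 0.72 (Fdps).

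**Figure D2:**
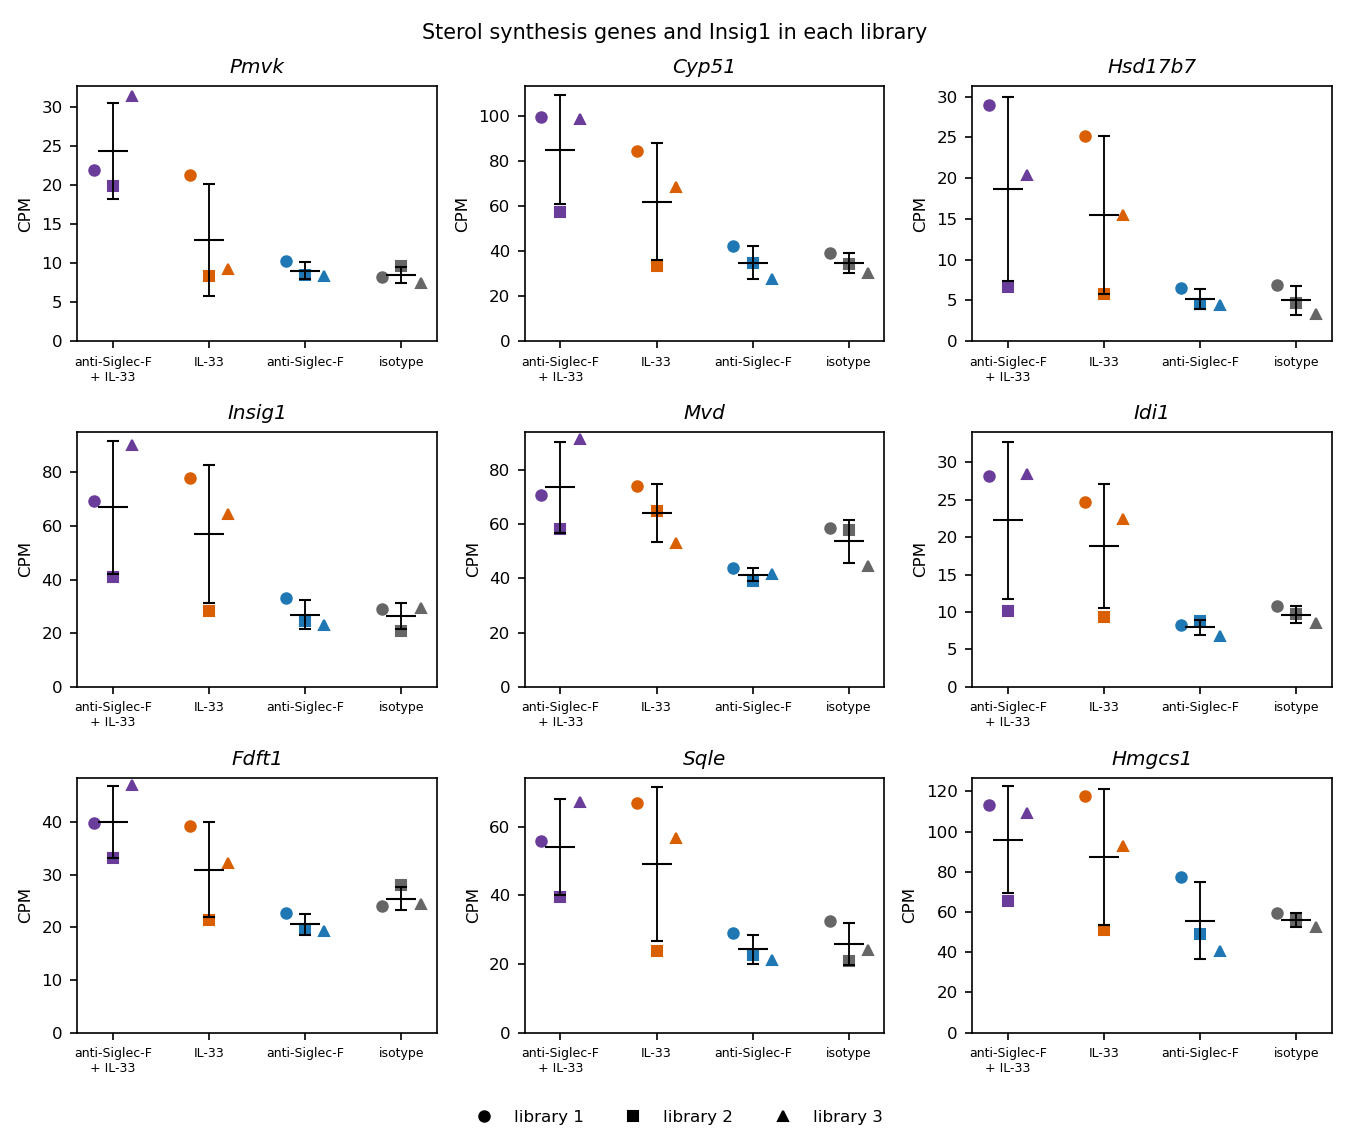
CPM of 8 synthesis enzymes and Insig1 in each library (circle, square and triangle for libraries 1, 2 and 3), with the group mean and SD in black. Libraries 1 and 3 of both IL-33-treated groups are high in most panels, library 2 of IL-33 alone is near the isotype level, and for Pmvk all 3 libraries given both stimuli stand at 19.9 to 31.5 against 7.52 to 9.60 with isotype.

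These calls sat close to the threshold and rested on few libraries. Without isotype library 3 none of the 4 passed, with an adjusted p of 0.0526 for Pmvk; Cyp51 was also lost without library 3 of the combined group or isotype library 2 (up to 0.0762), Insig1 without library 3 of the combined group or any isotype library (up to 0.0927), and Hsd17b7 without any library of these groups but library 2 of the combined one (up to 0.154), or without any 1 antibody-only library. With both libraries that stood apart removed, which leaves library 1 assumed to vary like the other groups, Cyp51 (adjusted p = 0.0287) and Hsd17b7 (0.0172) stayed called, Idi1 and Mylip joined them, and Pmvk (0.0738) and Insig1 (0.0623) did not pass. With limma voom, Hsd17b7 (0.109) and Insig1 (0.0770) did not pass and Abcg1 was called lower.

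Anti-Siglec-F plus IL-33 against anti-Siglec-F alone asks what IL-33 added to the antibody. Pmvk, Mvd, Idi1, Fdft1, Cyp51 and Insig1 rose, by 1.78-fold (Mvd) to 2.80-fold (Idi1), and no member was called lower. Calls made up 4.42% of all genes (2.7% higher, 1.72% lower), and 6 of the 29 members, all higher. The median log2 fold change of the 18 enzymes was 0.85, against -0.04 over all tested genes. In 10 members (34.5%) the groups did not overlap and the combined one was higher, against 10% of all tested genes. In 2 members, Scap and Abcg1, the combined one was lower without overlap, and the share of all genes for this was not computed.

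Mvd (chr8:122433601-122443422) had 70.9, 58.4 and 91.5 CPM with both stimuli, 74.3, 64.8 and 53.1 with IL-33, 43.8, 39.0 and 41.6 with anti-Siglec-F, and 58.6, 57.9 and 44.7 with isotype. The antibody-only libraries were the lowest of the 4 groups and tight (41.5 ± 2.37 CPM), and the combined group at 73.6 ± 16.7 did not overlap them. The log2 fold change was 0.83 ± 0.19 (adjusted p = 0.0270), against 0.45 ± 0.19 relative to isotype (adjusted p = 0.139).

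Idi1 (chr13:8885501-8892451) had 28.2, 10.1 and 28.4 CPM with both stimuli, 24.6, 9.29 and 22.4 with IL-33, 8.30, 8.75 and 6.81 with anti-Siglec-F, and 10.8, 9.67 and 8.54 with isotype. Library 2 of the combined group was only just above the antibody-only range. The mean was 22.2 ± 10.5 CPM with both stimuli and 7.95 ± 1.02 with anti-Siglec-F (log2 1.49 ± 0.39, adjusted p = 0.0467). The gene shares 9.22% of its exonic bases with Gm48574 on the other strand.

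Fdft1 (chr14:63145150-63179578) had 39.9, 33.2 and 47.1 CPM with both stimuli, 39.3, 21.4 and 32.2 with IL-33, 22.8, 19.7 and 19.3 with anti-Siglec-F, and 24.0, 28.0 and 24.4 with isotype. The combined libraries were above all antibody-only and isotype libraries, on a mean of 40.1 ± 6.92 CPM with both stimuli against 20.6 ± 1.94 with anti-Siglec-F (log2 0.96 ± 0.21, adjusted p = 0.0241). Ctsb, a highly transcribed protease gene on the other strand, overlaps 18.3% of its exonic bases, and reads of the overlap cannot be assigned without the strand setting, which the sources used here do not give.

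For the genes already described, the log2 fold change against anti-Siglec-F was 1.44 ± 0.32 for Pmvk (adjusted p = 0.0247), 1.29 ± 0.30 for Cyp51 (0.0311) and 1.32 ± 0.34 for Insig1 (0.0446). Hsd17b7 at 1.85 ± 0.53 (0.0664), Sqle at 1.16 ± 0.32 (0.0583) and Msmo1 at 0.91 ± 0.26 (0.0666) did not pass. None of the 6 calls was kept without library 3 of the combined group or without any 1 antibody-only library, with adjusted p-values up to 0.173, and Idi1 was also lost without library 1 of the combined group; without both libraries that stood apart, only Idi1 (0.0325) of the 6 was kept, and Hsd17b7 passed. This comparison shares its combined libraries with the one against isotype, so the 2 are not independent.

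**Figure D3:**
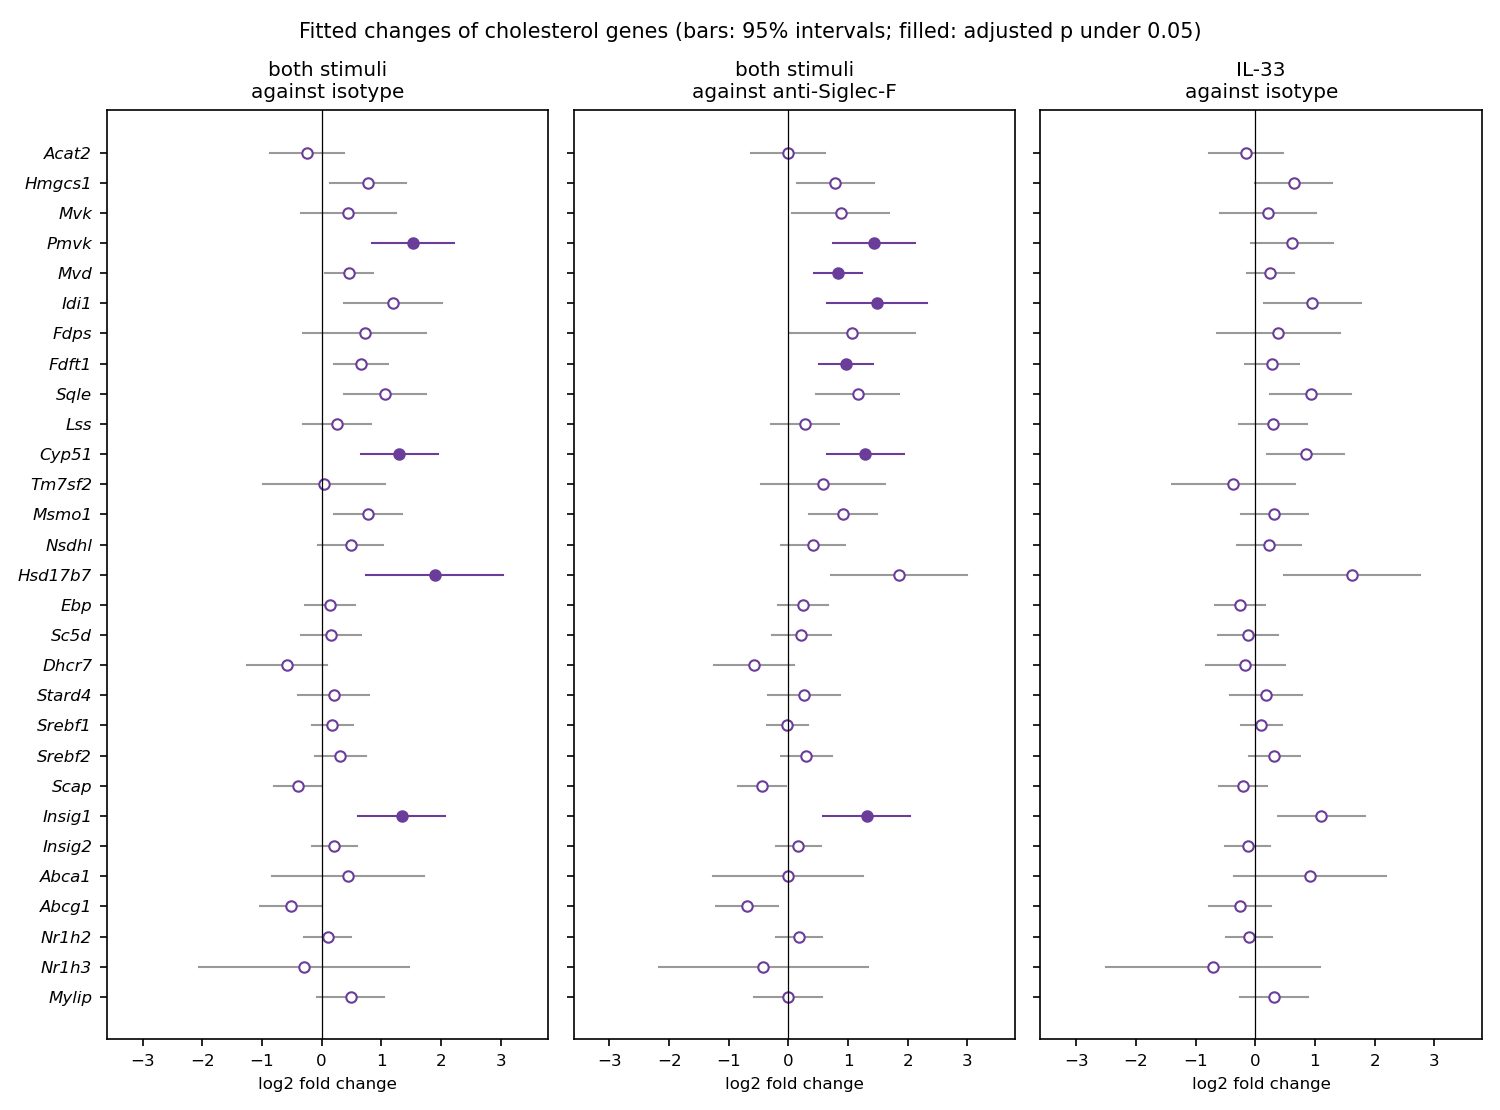
Fitted log2 fold change of each gene (circle) with the 95% interval of the test, for both stimuli against isotype (left), both stimuli against anti-Siglec-F (middle) and IL-33 against isotype (right), filled where the adjusted p was under 0.05. Filled circles number 4, 6 and 0, all to the right of 0, and 13 of the 18 enzyme estimates for IL-33 lie to the right of 0.

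IL-33 against isotype asks what the cytokine did without antibody. No member passed the test, and 5 of the 29 had an unadjusted p under 0.05, as did 13.6% of all genes; all 5 were higher with IL-33: Insig1, Hsd17b7, Sqle, Cyp51 and Idi1. Their log2 fold changes were 1.11 ± 0.34, 1.62 ± 0.53, 0.93 ± 0.32, 0.84 ± 0.30 and 0.96 ± 0.38, with adjusted p-values of 0.121 to 0.264. Calls made up 2.21% of all genes (1.46% higher, 0.749% lower). The median of the 18 enzymes was 0.29 and that of all genes -0.01.

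Library 2 of the IL-33 group was low in this pathway. It was the lowest of its group in 14 of the 18 enzymes, against 34.3% of all tested genes; library 2 of the combined group was lowest in 12 enzymes (36.7% of all genes) and isotype library 3 in 13 (32.0%), so being lowest was not particular to it. The median enzyme lay 0.51 and 0.52 above the isotype mean (log2) in libraries 1 and 3 and at -0.05 in library 2. Of the 18 enzymes, 11, 2 and 11 in libraries 1, 2 and 3 exceeded all isotype libraries; for the combined group the numbers were 10, 9 and 15, with medians of 0.45, 0.33 and 0.93, and for anti-Siglec-F alone 4, 1 and 0. Enzymes below all isotype libraries numbered 5, 2 and 0 with both stimuli, 4, 6 and 3 with IL-33, and 5, 8 and 9 with anti-Siglec-F. The share of all tested genes below the isotype libraries was not computed, so whether these numbers are unusual cannot be told. The share of all tested genes above the isotype libraries was 29.2%, 34.6% and 37.3% with both stimuli, 28.1%, 32.5% and 30.8% with IL-33, and 27.3%, 28.0% and 26.2% with anti-Siglec-F. Sqle, for example, had 67.1, 23.8 and 56.6 CPM with IL-33 against 32.6, 21.0 and 24.1 with isotype. The within-group SD of the log2 level had a median of 0.54 over the enzymes with IL-33, against 0.29 over all genes, while in the combined group it was 0.44 against 0.45. The same library had the highest summed levels of B cell markers (1049 CPM, against 517 to 957 in the other 11) and of T cell and ILC2 markers (96.8, against 18.2 to 47.5), whose part in the result was not tested.

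Without that library, Sqle, Cyp51 and Insig1 passed, with adjusted p-values of 0.0257, 0.0392 and 0.0271, in a fit that called 175 of 15018 genes. That library was singled out by its low levels in this same pathway, so the fit without it is not separate support for a rise. The labels do not pair the samples, and the main fit used no block. Same-numbered IL-33 and isotype libraries deviated together (correlations of 0.313, 0.424 and 0.237), so their numbers were taken as pairs in a further fit. With the number as a block in a fit of these groups alone, 3 of the 29 members were called higher. They were Sqle (adjusted p = 0.0221), Hsd17b7 (0.0201) and Insig1 (0.00838). That fit called 1235 of 13597 genes, a share close to that of the members, and it was not planned in advance.

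**Figure D4:**
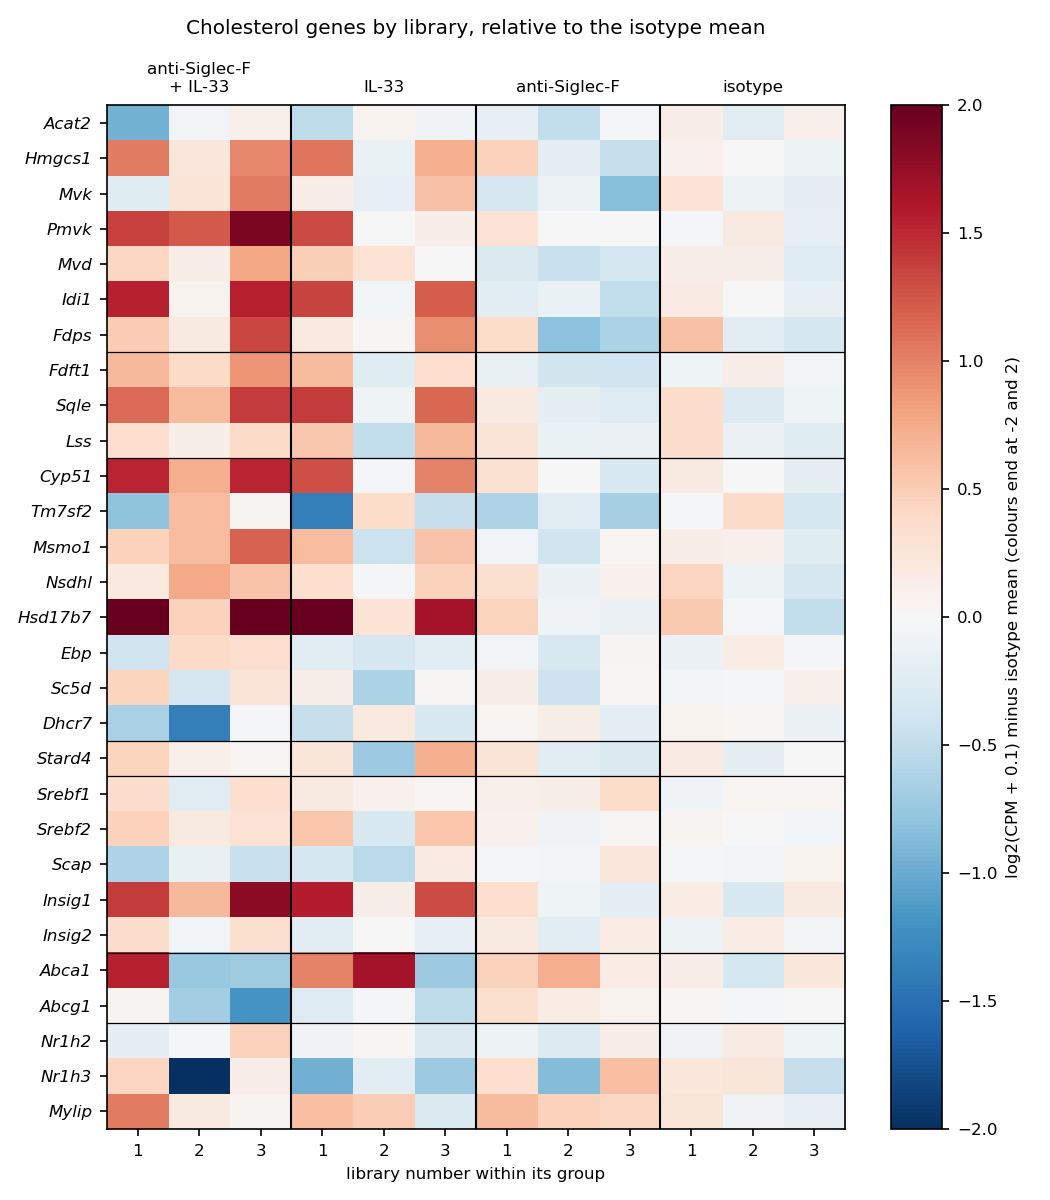
Log2(CPM + 0.1) of each gene in each library minus its isotype mean, red for higher and blue for lower, with colours ending at -2 and 2. Most enzymes and Insig1 are red in libraries 1 and 3 of both IL-33-treated groups and pale in library 2 of IL-33 alone, and the antibody-only columns are mostly pale.

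Anti-Siglec-F against isotype asks what the antibody did by itself. No member was called and none had an unadjusted p under 0.05; 0% of all genes were called, with 370 at an unadjusted p under 0.05, and DESeq2 called 12 genes and limma voom 10, none of them a member. The median log2 fold change was -0.10 over the 18 enzymes, of which 4 were above 0 (22.2%, against 48.8% of all genes), -0.28 over the mevalonate steps and -0.01 over all genes. The fitted difference was 0.01 for Cyp51 (95% interval -0.63 to 0.66), 0.02 for Insig1 (-0.70 to 0.75) and -0.37 for Mvd (-0.78 to 0.03). A p above the threshold does not show that the antibody had no effect, and the interval of Insig1 allows a change of up to 0.75 on the log2 scale.

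Anti-Siglec-F plus IL-33 against IL-33 alone asks what the antibody added to the cytokine. No member was called, and 0% of all genes were, with 2526 at an unadjusted p under 0.05 and 470 called by DESeq2, none of them a member. Pmvk alone of the 29 had an unadjusted p under 0.05, at 24.4 ± 6.18 CPM with both stimuli and 13.0 ± 7.22 with IL-33 (log2 0.91 ± 0.31, adjusted p = 0.207). Of the 18 enzymes 15 had a fold change above 1 (83.3%, against 47.4% of all genes), with a median log2 fold change of 0.26. The differences were 0.46 ± 0.30 for Cyp51, 0.46 ± 0.26 for Msmo1, 0.41 ± 0.20 for Ebp, 0.37 ± 0.21 for Fdft1 and 0.34 ± 0.17 for Insig2, and 0.23 for Insig1, 0.14 for Sqle, 0.27 for Hsd17b7 and 0.14 for Hmgcs1, the last 4 within their SE. Without library 1 of the combined group, Ebp was called higher and Abca1 and Abcg1 lower, in a fit that called 2116 genes.

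The interaction tests whether the antibody effect differed between cultures with and without IL-33. No member was called, nor any of the other genes (0%), while 1150 genes had an unadjusted p under 0.05 and DESeq2 called 3 genes, no member among them. Mvd (log2 0.57 ± 0.26, adjusted p = 0.583) and Fdft1 (0.68 ± 0.30, 0.583) had unadjusted p-values under 0.05. The median over the enzymes was 0.48. The difference in calls between the combined group and IL-33 alone was thus not shown to be a difference in response.

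The SREBP genes passed in none of the 6 comparisons. Srebf2 (chr15:82147181-82205379) had 484, 397 and 430 CPM with both stimuli, 518, 285 and 514 with IL-33, 373, 336 and 359 with anti-Siglec-F, and 366, 350 and 340 with isotype. The combined libraries were all above the isotype ones, and IL-33 library 2 was the lowest of all 12. The log2 fold change with both stimuli was 0.31 ± 0.20 against isotype (adjusted p = 0.344), on means of 437 ± 44.0 and 352 ± 12.9 CPM.

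Srebf1 (chr11:60199089-60222581) had 114, 76.6 and 114 CPM with both stimuli, 102, 95.3 and 92.9 with IL-33, 96.4, 98.0 and 115 with anti-Siglec-F, and 85.4, 92.3 and 92.3 with isotype. The groups overlapped except that IL-33 and anti-Siglec-F lay above isotype, by log2 0.10 ± 0.16 and 0.20 ± 0.16, and the means were 102 ± 21.7, 96.6 ± 4.60, 103 ± 10.6 and 90.0 ± 4.01 CPM in that order of groups. None passed.

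Scap, the SREBP escort, had 117, 163 and 132 CPM with both stimuli against 178, 173 and 190 with isotype, all lower, at log2 -0.40 ± 0.19 (adjusted p = 0.197). Relative to anti-Siglec-F, with 175, 173 and 212 CPM, it stood at -0.44 ± 0.19 (adjusted p = 0.176). About 13.2% of the exonic bases of Scap overlap 5830462I19Rik on the other strand. Insig2, the less sterol-responsive INSIG gene, had a mean of 26.1 ± 3.93 CPM with both stimuli and 22.5 ± 2.12 with isotype (log2 0.21 ± 0.17, adjusted p = 0.463). Stard4, which moves sterol between membranes and is an SREBP target, had 78.2, 61.7 and 58.6 CPM with both stimuli, 67.9, 34.5 and 93.4 with IL-33, and 64.3, 50.9 and 57.6 with isotype (log2 0.20 ± 0.28 with both stimuli, adjusted p = 0.693).

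Neither efflux gene passed in any comparison, and the libraries of the IL-33-treated groups were widely spread. Abca1 (chr4:53030787-53159895) had 41.7, 8.41 and 8.65 CPM with both stimuli, 28.3, 45.1 and 8.59 with IL-33, 19.7, 23.6 and 15.7 with anti-Siglec-F, and 15.6, 11.2 and 16.5 with isotype. Within each IL-33-treated group the libraries lay on both sides of the isotype range. The means were 19.6 ± 19.2, 27.3 ± 18.3, 19.7 ± 3.93 and 14.4 ± 2.88 CPM, and the adjusted p against isotype was 0.677 with both stimuli, at log2 0.44 ± 0.59; with IL-33 the log2 fold change was 0.92.

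Abcg1 (chr17:31057698-31115777) had 155, 91.4 and 65.6 CPM with both stimuli, 124, 145 and 105 with IL-33, 186, 165 and 156 with anti-Siglec-F, and 153, 146 and 148 with isotype. The IL-33 libraries were all below isotype, and the combined libraries were all below anti-Siglec-F but spread from above to far below the isotype range. Against isotype the log2 fold change with both stimuli was -0.52 ± 0.24 (adjusted p = 0.190), and against anti-Siglec-F -0.70 ± 0.24 (adjusted p = 0.116), on means of 104 ± 45.9 CPM with both stimuli, 169 ± 15.4 with anti-Siglec-F and 149 ± 3.54 with isotype. It was called lower against isotype by limma voom (-0.67 ± 0.20, adjusted p = 0.0489) and without library 1 of the combined group (-0.94 ± 0.18, 0.00513), and likewise against anti-Siglec-F (adjusted p = 0.0382 and 0.00360). The 2 libraries that stood apart were the 2 low ones of the combined group for both pumps.

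Nr1h2 (chr7:44549616-44553951) had 116, 129 and 181 CPM with both stimuli, 126, 136 and 108 with IL-33, 123, 109 and 145 with anti-Siglec-F, and 126, 148 and 125 with isotype. The groups overlapped throughout, with means of 142 ± 34.6, 123 ± 14.3, 126 ± 18.1 and 133 ± 12.9 CPM. Nr1h3 (chr2:91184061-91202834) was near the limit of detection, with 1.53, 0 and 1.23 CPM with both stimuli, 0.522, 0.944 and 0.628 with IL-33, 1.43, 0.562 and 1.73 with anti-Siglec-F, and 1.31, 1.33 and 0.784 with isotype; the 0, in library 2, allows up to 0.252 CPM (3 counts, counting error only). Differences of that size in Nr1h3 could not be resolved at this depth.

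Mylip (chr13:45389742-45412022) had 169, 93.6 and 85.7 CPM with both stimuli, 125, 116 and 67.5 with IL-33, 128, 113 and 110 with anti-Siglec-F, and 97.3, 78.3 and 73.6 with isotype. The 3 antibody-only libraries were above all isotype libraries, at 117 ± 9.62 against 83.1 ± 12.5 CPM (log2 0.49 ± 0.26, adjusted p = 1). The combined and IL-33 libraries ran from within or below the isotype range to well above it, on means of 116 ± 46.2 and 103 ± 31.1 CPM.

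**Figure D5:**
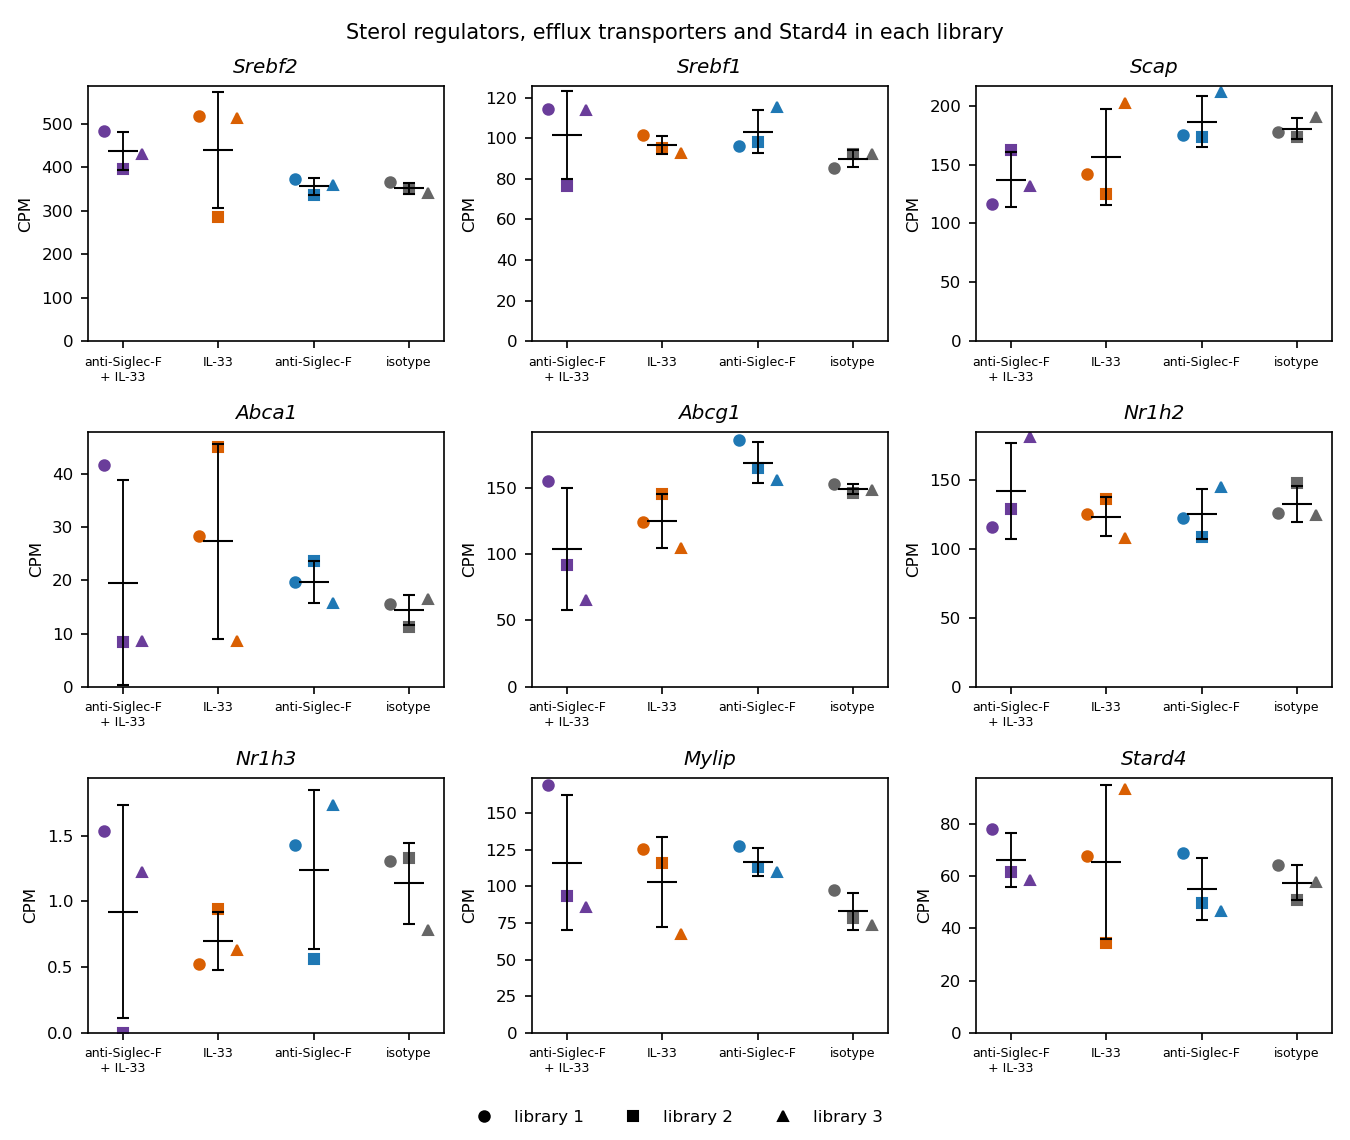
CPM of the SREBP, SCAP, efflux, liver X receptor, Mylip and Stard4 genes in each library (circle, square and triangle for libraries 1, 2 and 3), with the group mean and SD in black. Scap is 117 to 163 with both stimuli against 173 to 190 with isotype, and the libraries of the IL-33-treated groups scatter widely for Abca1.

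Neighbouring pathways were read from 5 further gene lists. With both stimuli against isotype, genes of sterol transport, storage and uptake gave 2 higher of 17 tested (11.8%), against 5.47% of all genes. Lipa, the lysosomal acid lipase that frees cholesterol from esters, had 214, 88.7 and 211 CPM with both stimuli, 130, 104 and 61.2 with IL-33, 51.6, 46.3 and 43.7 with anti-Siglec-F, and 32.2, 27.2 and 28.1 with isotype. Every library with IL-33 was above every library without it. The antibody-only libraries were also all above the isotype ones, though no gene was called in that comparison. The log2 fold change was 2.55 ± 0.32 with both stimuli (adjusted p = 0.000429) and 1.75 ± 0.31 with IL-33 (0.00859) against isotype, and 1.86 ± 0.31 with both stimuli against anti-Siglec-F (0.00590).

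Olr1, a scavenger receptor for oxidised lipoprotein, had 506, 316 and 291 CPM with both stimuli, 446, 315 and 252 with IL-33, 167, 156 and 197 with anti-Siglec-F, and 102, 81.9 and 111 with isotype. It too was higher in all IL-33-treated libraries than in the rest, and its antibody-only libraries were all above isotype, without a call. The log2 fold change against isotype was 1.92 ± 0.25 with both stimuli (adjusted p = 0.000513) and 1.78 ± 0.25 with IL-33 (0.00145), and with both stimuli against anti-Siglec-F it was 1.09 ± 0.24 (0.0246). Against isotype, both genes kept their call with both stimuli, and Olr1 with IL-33, when any 1 library of either group was left out; Lipa with IL-33 lost it without IL-33 library 1 or isotype library 2 or 3 (up to 0.0533). Against anti-Siglec-F, Lipa kept its call and Olr1 lost it without any 1 antibody-only library (up to 0.128).

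Of 11 lipogenesis genes, 1 was called in each direction with both stimuli against isotype, where 5.47% of all genes were called higher and 4.41% lower. Such a count in so short a list says little about the list. The called genes were Me1, malic enzyme, at 2.12, 0 and 4.22 CPM against 0.0653, 0.148 and 0.0784 (log2 4.34 ± 1.26, adjusted p = 0.0437), and Elovl5, a fatty acid elongase, at 55.2, 43.1 and 40.5 CPM against 83.2, 62.7 and 70.0 (log2 -0.64 ± 0.19, 0.0473). Me1 was at 0 in library 2, and its call was lost without library 3 of the combined group or any isotype library (up to 0.165); Elovl5 lost its call in 5 of 6 such fits (up to 0.214). Smpdl3a, a liver X receptor target in macrophages, fell in both IL-33-treated groups, with 89.2, 137 and 84.2 CPM with both stimuli and 96.3, 76.8 and 128 with IL-33 against 186, 173 and 216 with isotype (log2 -0.89 ± 0.23, adjusted p = 0.0249, and -0.93 ± 0.23, 0.0479). It was the sole call of 6 tested genes in the list of liver X receptor partners and targets. Over all genes 9.88% were called with both stimuli and 2.21% with IL-33. Its calls were lost in 3 and 5 of 6 such fits (up to 0.127 and 0.241). No gene was called among 8 of SREBP processing and 13 of the isoprenoid branch.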

How the data were processed

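The authors deposited raw counts per gene, made per the submitters' processing notes with fastp, FastQC 0.11.8, STAR 2.6.1d, featureCounts 1.5.0-p3 and the mm10 build; annotation release and strand setting were not given in the sources used. DESeq2 is named there too, but the authors' normalized values were not used. The members and gene lists were chosen with earlier results of these data known. From the deposited counts, all 12 libraries were fitted with edgeR 4.0.16 (R 4.3.3, quasi-likelihood test, TMM factors, low-count filter by group, no block), and p-values were adjusted by Benjamini-Hochberg over all 14547 tested genes, with calls at 0.05; 95% intervals use the t quantile at the test's degrees of freedom. Levels per kilobase use the deposited gene lengths. CPM is each deposited count over the reads in tested genes, scaled by TMM. The script was tested on simulated data. Members called in any comparison, and the receptors, SREBP, Insig1, pump and Mylip genes, are given in every library; from other lists, up to 4 called genes each. Hmgcs1, Sqle, Msmo1, Scap and Stard4 are shown in addition, chosen after their values were seen. Alternatives were DESeq2 1.42.0, limma 3.58.1 voom, other filters and scaling, and libraries left out. Same-numbered IL-33 and isotype libraries deviated together (correlations of 0.313, 0.424 and 0.237 over 9178 genes, each above 0.1), so those numbers were taken as pairs. In every other pair of groups not all such correlations were above 0.1, so they were not. Exonic overlaps were read from GENCODE M21 (GRCm38).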

Additional observations from a re-analysis of the deposited data

How the results depend on the processing

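For IL-33 against isotype, 0 members were called as reported, and 2 by DESeq2, 8 by limma voom, 6 with no low-count filter, 1 with a replicate block over all libraries and 3 with a replicate block over these groups alone. The last of these alternatives was not planned in advance. For both stimuli against isotype, 4 became 3 by voom (Pmvk and Cyp51 higher, Abcg1 lower), 8 by DESeq2, with no filter and with a stricter filter (mean CPM of 5); against anti-Siglec-F, 6 became 1 by voom (Abcg1, lower), 11 with no filter, 2 without both combined libraries that stood apart and 3 without the second library of each group, an alternative added after seeing the data; against IL-33, 0 became 1 with no filter. Leaving out 1 library at a time gave 0 to 3 members for IL-33 against isotype, 0 to 8 for both stimuli against isotype, 0 to 9 against anti-Siglec-F and 0 to 3 against IL-33, and 0 throughout for anti-Siglec-F alone and the interaction. The replicate numbers were not taken to pair the combined or antibody-only samples with others, as not every same-numbered correlation was above 0.1. The first libraries did deviate together in every pair of groups (correlations of 0.215 to 0.481). Library 1 was highest in 13 of 18 enzymes with isotype (35.1% of all tested genes), 11 with anti-Siglec-F (30.7%), 11 with IL-33 (26.7%) and 4 with both stimuli (34.9%). With both stimuli library 3 was highest in 11 enzymes (36.6% of all tested genes). The part of this in the results was not tested. A block there gave 5 members for both stimuli against isotype and 8 against anti-Siglec-F, and changed no other member count of these groups. Of 4249 single-gene values, 4039 kept their side of the threshold, 90 passed anew, 120 were lost and 0 called values changed sign. Over all genes, IL-33 against isotype called 322 as reported, 806 by DESeq2, 2089 by voom, 683 with no filter, 688 without the combined libraries that stood apart, 1235 with the 2-group block, 51 without second libraries and 116 to 488 leaving out 1 library; both stimuli against isotype 1437, against 2404 by DESeq2, 738 with only the groups compared, 651 without the 2 that stood apart, 502 without second libraries and 515 to 2916 leaving out 1; against anti-Siglec-F 643, against 1627 by DESeq2, 424 by voom, 1600 with no filter, 242 with only the groups compared, 220 without the 2 that stood apart, 100 without second libraries and 124 to 2839; against IL-33 0, against 470 by DESeq2, 786 with no filter and up to 2116; anti-Siglec-F alone 0, against 12 by DESeq2, 10 by voom, 70 with no filter, 20 with only the groups compared and up to 1; the interaction 0, against 3 by DESeq2, 86 with no filter and up to 4. Taking GENCODE lengths, an alternative added after seeing the data, moved 4 members in the order of isotype levels. The interaction was not run with fewer groups. The cause was not tested. Nr1h3, Me1, Fdps and Tm7sf2 were low enough that depth limits what they can show.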
